A study of Mus musculus with 2 samples.

Results

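Genes of DNA replication and mitosis were followed through the progenitor cells of embryonic mouse neocortex. The set holds 54 of the 33938 genes in the count tables, and all 54 were found by symbol. Of these, 24 act mainly in S phase, when DNA is copied, and 30 in G2 and M phase, when the cell prepares for division and divides. The members were listed by their known roles, with earlier results of these data known. Nuclei were taken from micro-dissected embryonic neocortices, and their RNA was read as UMIs (unique molecular identifiers, 1 per captured RNA molecule) with the 10x Genomics method. The libraries are labelled MEN1-NCKO and MEN1-F/F, named for the gene of menin, and there is 1 library per label. The sources used here do not give embryonic age, Cre driver, strain, number of embryos per library or the deleted part of the gene. Since each label has 1 library, replicate spread is unknown, no test could be made, and every difference is one between these 2 libraries.

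Before a cell divides, the MCM helicase is loaded on DNA and activated by Cdc45 and the GINS complex. Polymerases copy the strands, and new nucleotides and histones are supplied. The kinase Cdk1 with its cyclin B partners then starts mitosis, kinesins and Aurora kinases build the spindle, kinetochores hold the chromosomes, and cytokinesis parts the daughter cells. In the developing cortex, radial glia divide at the ventricle and intermediate progenitors divide away from it to give neurons. Progenitors of the ganglionic eminences give interneurons, and glial precursors keep dividing as neurogenesis ends.

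After filtering, 9807 NCKO-labelled and 6130 F/F-labelled nuclei were kept, with median depths of 3579 and 3663.5 UMIs. The deposited tables held 50115162 UMIs in 10750 NCKO-labelled and 30116311 UMIs in 6477 F/F-labelled barcodes. The libraries shared 14 barcodes among the kept nuclei. Men1 itself, over all kept nuclei, had 555 UMIs (13.5 CPM, counts scaled to 1000000 UMIs per library and class) in the NCKO-labelled against 277 UMIs (10.3 CPM) in the F/F-labelled library, a ratio of 1.30 with a 95% interval of 1.13 to 1.51. In the progenitor classes together it was lower, with 26 UMIs (9.29 CPM) in the NCKO-labelled against 35 UMIs (17.4 CPM) in the F/F-labelled library, a ratio of 0.533 (0.308 to 0.912). The deleted part is not known, so a tag at the 3′ end may lie outside it. Libraries are therefore named by their labels.

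Nuclei were sorted into classes by marker genes, without using cell cycle genes to cluster them. Radial glia-like nuclei numbered 330 in the NCKO-labelled and 203 in the F/F-labelled library, and all 10 radial glia markers were detected in both. Intermediate progenitor-like nuclei numbered 97 and 161, with 7 of 8 markers detected in each library and Neurog1 at 0 in both. Ganglionic eminence progenitor-like nuclei numbered 102 and 83, with 7 of 8 markers and Gsx1 at 0. Glial precursors were split into 154 and 71 oligodendrocyte precursor-like nuclei and 208 and 97 astrocyte-like nuclei, each with every marker of its list detected. In all, 998 NCKO-labelled and 704 F/F-labelled nuclei belonged to these progenitor clusters, a pool that also holds 2 sub-clusters set apart from their class because they scored best as another. A further sub-cluster, led by at least 3 of 8 listed genes of ciliated or choroid cells, had 33 NCKO-labelled and 20 F/F-labelled nuclei and was left out. Another, with Spef2 of that list and Enkur and Cfap44 among its leading genes, fell short of 3 and was kept as radial glia-like. It had 67 NCKO-labelled and 31 F/F-labelled nuclei, at 747 and 165 CPM of G2 and M phase members, so nuclei of ciliated type may remain in that class. Markers of other classes were also present: radial glia-like nuclei held 4852.5 CPM of the 8 astrocyte markers in the NCKO-labelled and 4329 CPM in the F/F-labelled library. Intermediate progenitor-like nuclei were 0.989% (95% exact binomial interval 0.803 to 1.21) of NCKO-labelled and 2.63% (2.24 to 3.06) of F/F-labelled nuclei. All intervals cover counting error only.

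Across the progenitor pool, the S phase members summed lower in the NCKO-labelled library, and the interval of the G2 and M phase ratio spanned 1. S phase members summed to 857 CPM (823 to 892) in the NCKO-labelled library and 945 CPM (903 to 989) in the F/F-labelled library, a ratio of 0.907 (0.854 to 0.964). G2 and M phase members summed to 1774 CPM (1725 to 1824) in the NCKO-labelled and 1844 CPM (1785 to 1904) in the F/F-labelled library, a ratio of 0.962 (0.922 to 1.004). Without doublet removal, where the pool held no cluster named astrocyte-like, these ratios were 0.766 and 0.730. The classes that make up the pool went different ways. In radial glia-like nuclei the G2 and M phase sum was lower in the NCKO-labelled library, at 986 CPM (921 to 1054) against 1526 CPM (1428 to 1629) in the F/F-labelled library, a ratio of 0.646 (0.588 to 0.710). In intermediate progenitor-like nuclei it was higher, at 2118 CPM (1951 to 2296) in the NCKO-labelled against 1101 CPM (1005 to 1205) in the F/F-labelled library, a ratio of 1.92 (1.70 to 2.17). Oligodendrocyte precursor-like nuclei had 1054 CPM (968 to 1147) in the NCKO-labelled and 476 CPM (394 to 571) in the F/F-labelled library, a ratio of 2.21 (1.81 to 2.73). Astrocyte-like nuclei had 1827 CPM (1719 to 1941) in the NCKO-labelled and 2205 CPM (2039 to 2380) in the F/F-labelled library, a ratio of 0.829 (0.751 to 0.915). Ganglionic eminence progenitor-like nuclei had 4302 CPM (4054 to 4560) in the NCKO-labelled and 4488 CPM (4210 to 4780) in the F/F-labelled library, a ratio of 0.958 (0.879 to 1.04).

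S phase sums differed less between the libraries than G2 and M phase sums in radial glia-like, intermediate progenitor-like and oligodendrocyte precursor-like nuclei. In radial glia-like nuclei they were 484 CPM in the NCKO-labelled and 539 CPM in the F/F-labelled library, a ratio of 0.898 (0.774 to 1.04). Intermediate progenitor-like nuclei gave 1.17 (1.0001 to 1.37) and oligodendrocyte precursor-like nuclei 0.828 (0.670 to 1.03). The ratio was 0.880 (0.782 to 0.990) in ganglionic eminence progenitor-like and 1.07 (0.907 to 1.26) in astrocyte-like nuclei. It turned to 1.05 in ganglionic eminence progenitor-like nuclei without doublet removal, and to 0.995 in intermediate progenitor-like nuclei with F/F-labelled weights for the sub-clusters. Upper-layer neuron-like nuclei, which no longer divide, gave the background: 192 and 198 CPM for S phase members, and 55.6 and 64.6 CPM for G2 and M phase members, in the NCKO-labelled and F/F-labelled library in that order. The S phase background was higher in interneuron-like nuclei of the medial ganglionic eminence, at 422 CPM in the NCKO-labelled and 482 CPM in the F/F-labelled library, while their G2 and M phase sums were 68.8 and 78.7 CPM. The S phase sums of radial glia-like and oligodendrocyte precursor-like nuclei thus lay near those of interneuron-like nuclei, whereas the G2 and M phase sum of each progenitor class lay above those of all 7 neuron classes measured.

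**Figure D1:**
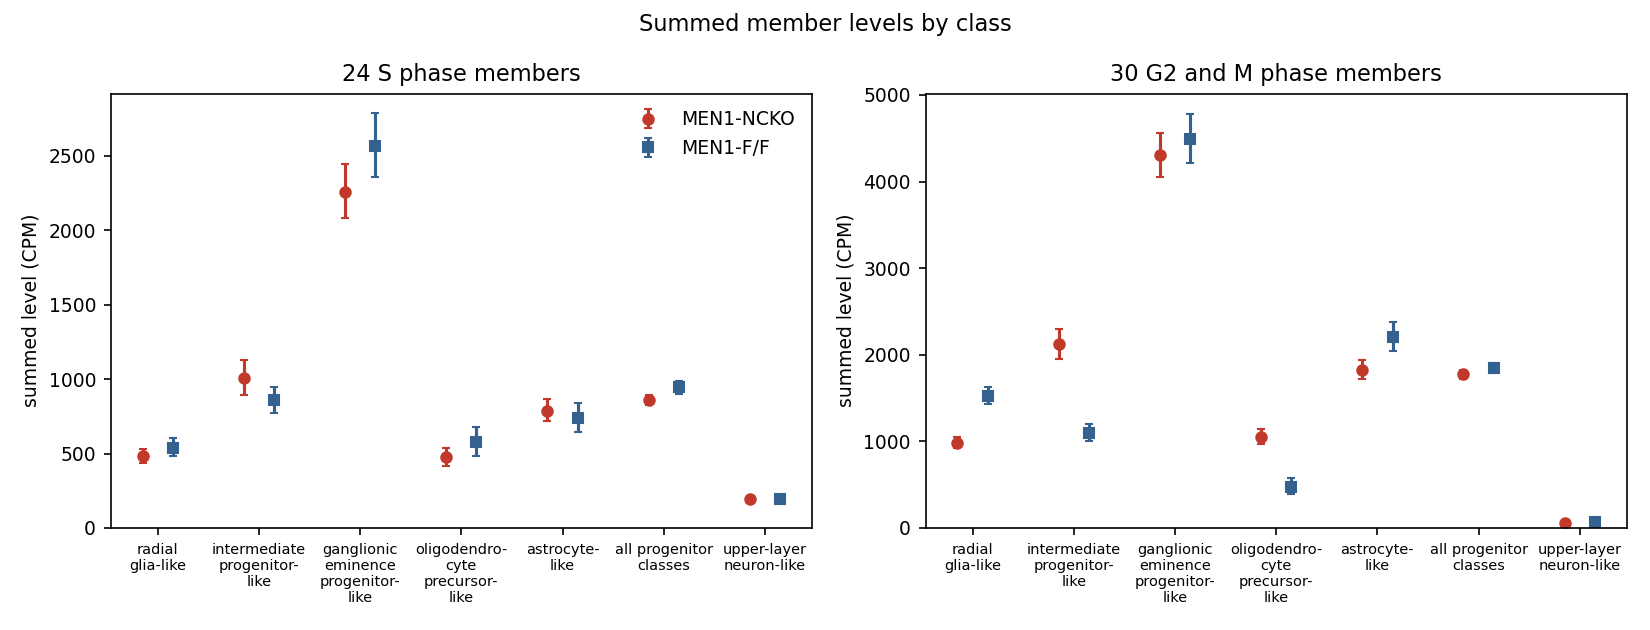
Summed levels in CPM of the 24 S phase members (left) and the 30 G2 and M phase members (right) by class, MEN1-NCKO (red circles) beside MEN1-F/F (blue squares); bars are exact Poisson 95% intervals of the UMIs. The G2 and M phase sums of the NCKO-labelled library lie below in radial glia-like (986 against 1526 CPM) and above in intermediate progenitor-like (2118 against 1101 CPM) and oligodendrocyte precursor-like nuclei (1054 against 476 CPM).

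Most G2 and M phase UMIs came from few nuclei, so the counting intervals of these sums are too narrow as a guide to the error between nuclei. Among radial glia-like nuclei, 50% of the G2 and M phase UMIs were held by 12 of 330 nuclei in the NCKO-labelled library and by 12 of 203 in the F/F-labelled library. Nuclei with at least 5 such UMIs numbered 33 of 330 (10.0%) and 33 of 203 (16.3%), and they held 90.7% and 91.0% of these UMIs. Within those nuclei the level was 5111 CPM in the NCKO-labelled and 6252 CPM in the F/F-labelled library. Among intermediate progenitor-like nuclei, 22 of 97 (22.7%) NCKO-labelled and 17 of 161 (10.6%) F/F-labelled nuclei had at least 5 UMIs, with 5931 and 7261 CPM within them. Such nuclei were 22 of 154 (14.3%) NCKO-labelled and 6 of 71 (8.45%) F/F-labelled oligodendrocyte precursor-like nuclei, with 4874 and 2845 CPM within them, so the F/F-labelled value rests on 6 nuclei. The share of nuclei that carried the UMIs was thus lower in the NCKO-labelled library in radial glia-like and higher in intermediate progenitor-like nuclei. The nuclei were chosen by these same UMIs at unequal depth, so the level within them is a description only.

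The radial glia-like cluster held a sub-cluster rich in G2 and M phase UMIs, with 23 NCKO-labelled and 35 F/F-labelled nuclei, which is 5.75% and 13.6% of the parent cluster. Its G2 and M phase level was 6628 CPM in the NCKO-labelled and 5884 CPM in the F/F-labelled library. Giving each sub-cluster its F/F-labelled weight, the radial glia-like ratio for G2 and M phase members was 1.15 instead of 0.646. Such weights hold the share of this sub-cluster equal in both libraries, so a difference in that share cannot appear in the weighted ratio. The matching intermediate progenitor-like sub-cluster had 24 of 97 NCKO-labelled nuclei (24.7%) and 23 of 161 F/F-labelled nuclei (14.3%), at 7164 and 5641 CPM. The oligodendrocyte precursor-like one had 19 nuclei (12.3%) in the NCKO-labelled and 6 (8.45%) in the F/F-labelled library, at 4812 and 2621 CPM. The astrocyte-like one had 40 (19.2%) NCKO-labelled and 28 (28.9%) F/F-labelled nuclei, at 5493 and 5294 CPM, against 240 to 553 CPM in the other astrocyte-like sub-clusters. It scored 0.915 as radial glia and 0.910 as astrocyte and was kept as astrocyte-like. Most G2 and M phase UMIs of that class thus came from nuclei not told apart from radial glia.

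Members of one phase were detected in the same nuclei. Nuclei of the pool were sorted by the other members: those with at least 2 UMIs of other G2 and M phase members at 1000 UMIs per nucleus, those with at least 2 UMIs of S phase members only, and the rest. For Top2a, which encodes the topoisomerase that untangles chromosomes before they separate, these groups held 366, 185 and 1113 nuclei. Its level was 781 CPM in the nuclei with G2 and M phase UMIs, 172 CPM in those with S phase UMIs only and 14.3 CPM in the rest. Pola1, which encodes the catalytic subunit of the polymerase that starts each DNA strand, had 389, 560 and 121 CPM in the corresponding groups. Pola1 was thus present in nuclei with few other members, and had 71.2 CPM in NCKO-labelled and 69.6 CPM in F/F-labelled upper-layer neuron-like nuclei.

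Of the 29 G2 and M phase members with at least 50 UMIs in the pool, all 29 had a higher level in nuclei with G2 and M phase UMIs than in those with S phase UMIs only, and each interval of the ratio lay above 1. This held for all 29 in the NCKO-labelled and all 29 in the F/F-labelled library taken alone. The nuclei with S phase UMIs only were chosen for having under 2 UMIs of the other G2 and M phase members. A lower level of members detected together is thus partly set by the sorting rule, and the same count over other genes is not given. The ratios with a denominator above 0 ranged from 2.35 for Smc4, a condensin subunit, to 23.5 for Cdc20, an activator of the anaphase-promoting complex, which had 73 UMIs in the nuclei with G2 and M phase UMIs and 1 in the others. Ccnb1, a cyclin B gene, and Hmmr, which encodes a spindle-associated protein, had no UMI in the nuclei with S phase UMIs only, against 75.9 and 132 CPM in those with G2 and M phase UMIs. Among the others, Mki67, the gene of the proliferation antigen Ki-67, had a ratio of 3.97 (2.63 to 6.23) and Top2a one of 4.55 (3.64 to 5.74). Cenpe, a kinetochore motor, had 16.8 (7.13 to 52.3) and Cenpa, the centromeric histone H3 variant, 14.6 (7.31 to 34.0).

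S phase members were less sharply confined under this sorting. Nuclei with UMIs of both phases fell in the group with G2 and M phase UMIs, so this contrast is partly set by the sorting rule. Of the 21 with at least 50 UMIs, 18 had a lower level in the nuclei with G2 and M phase UMIs, and for 11 the interval of the ratio lay below 1. The ratio was 0.302 (0.153 to 0.597) for Mcm2, a subunit of the replicative helicase, and 0.408 (0.233 to 0.724) for Pcna, the sliding clamp of the polymerases. It was 0.437 (0.292 to 0.659) for Uhrf1, which helps to copy DNA methylation. The 3 S phase members with a ratio above 1 were Rrm2 (1.22, 0.709 to 2.22), the small subunit of ribonucleotide reductase, Cdc45 (1.22, 0.549 to 3.08), and Cdca7 (1.20, 0.783 to 1.91). In the NCKO-labelled library alone 16 of the 21 were lower in G2 and M phase nuclei, and in the F/F-labelled library 18 of 21.

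**Figure D2:**
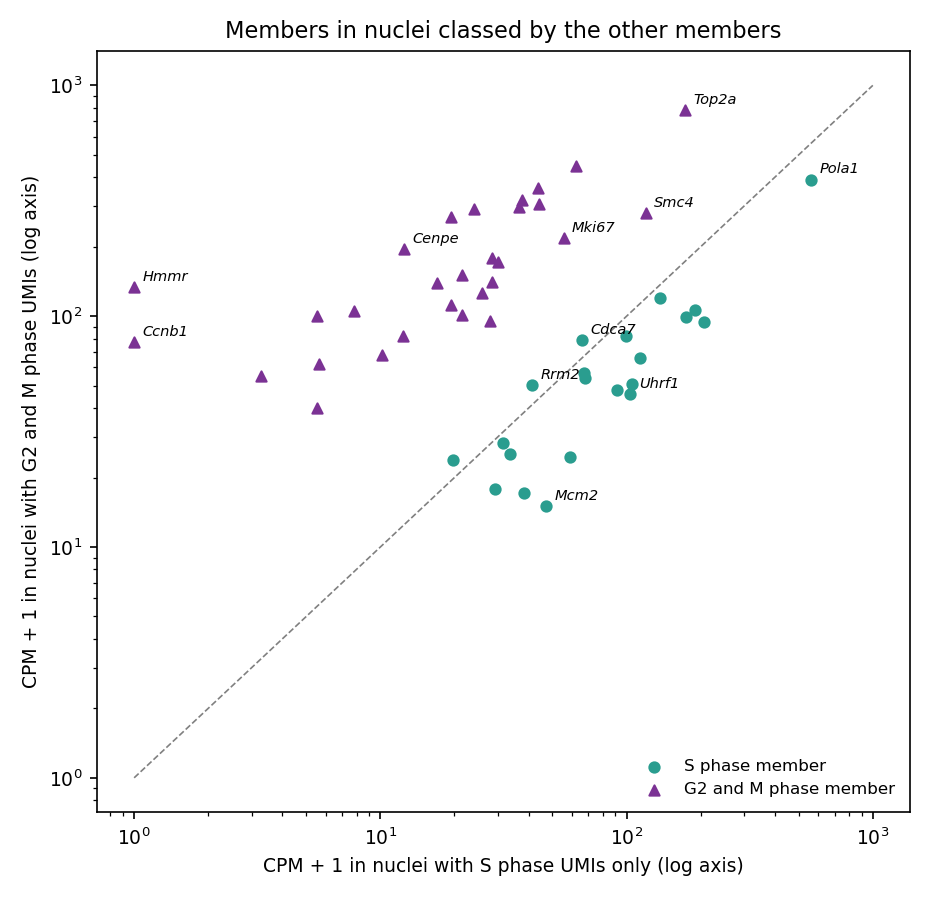
Level of each member with at least 50 UMIs in the pool, both libraries together, in nuclei with S phase UMIs only (x axis) and in nuclei with G2 and M phase UMIs (y axis), as CPM + 1 on log axes; nuclei were classed by the other members and the dashed line marks equal levels. All 29 G2 and M phase members (triangles) lie above the line, and 18 of 21 S phase members (circles) lie below it, which is partly set by the sorting.

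The promoters of the 2 groups also differed in the letters they hold. RefSeq promoter windows (GRCm38.p6), from 250 bases before to 50 bases after a start, were matched to 48 of the 54 members. They were searched on both strands for 3 motifs known from cell cycle genes. The E2F motif (TTTCCCGC, TTTCGCGC, TTTGCCGC or TTTGGCGC) is bound by E2F factors that drive S phase genes. It was found for 11 of 21 S phase members (52.4%), 1 of 27 G2 and M phase members (3.70%) and 2.60% of all 27025 genes with a window. The CHR (cell cycle genes homology region, TTTGAA or TTCGAA) is bound by the MuvB complex at late cell cycle genes. It was found for 20 of 27 G2 and M phase members (74.1%), 4 of 21 S phase members (19.0%) and 21.7% of all genes. CCAAT, bound by the factor NF-Y, was found for 20 of 27 G2 and M phase members (74.1%), 15 of 21 S phase members (71.4%) and 41.1% of all genes. A CHR together with a CCAAT was present for 17 of 27 G2 and M phase members (63.0%), 3 of 21 S phase members (14.3%) and 8.61% of all genes. Matches of different motifs shared letters in 1 case among the member windows. These counts describe letters in a window and no binding was measured.

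The promoters of Pola1, Dtl, Top2a and Kif11 show these motifs. They were taken from the members with the most UMIs in the pool among those with the motif. Each holds the 250 bases before the start, 5′ to 3′ on the gene's strand. Capitals mark, as read on either strand, the E2F motif in Pola1 (chrX:93632156-93632405, minus strand) and Dtl (chr1:191575545-191575794, minus strand), and CHR and CCAAT motifs in Top2a (chr11:99024190-99024439, minus strand) and Kif11 (chr19:37376132-37376381, plus strand). Dtl encodes the substrate receptor that directs destruction of the licensing factor Cdt1 in S phase, and Kif11 encodes the kinesin that pushes the spindle poles apart.
Pola1: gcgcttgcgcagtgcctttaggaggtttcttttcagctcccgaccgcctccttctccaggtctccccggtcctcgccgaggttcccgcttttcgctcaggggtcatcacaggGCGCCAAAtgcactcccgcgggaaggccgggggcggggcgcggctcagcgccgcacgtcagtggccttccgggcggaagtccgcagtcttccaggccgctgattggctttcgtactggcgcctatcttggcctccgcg
Dtl: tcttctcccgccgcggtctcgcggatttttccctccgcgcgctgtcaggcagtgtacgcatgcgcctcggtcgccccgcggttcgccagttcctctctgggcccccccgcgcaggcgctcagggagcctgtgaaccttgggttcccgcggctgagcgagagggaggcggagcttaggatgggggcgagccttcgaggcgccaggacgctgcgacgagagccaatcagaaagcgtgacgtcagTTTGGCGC
Top2a: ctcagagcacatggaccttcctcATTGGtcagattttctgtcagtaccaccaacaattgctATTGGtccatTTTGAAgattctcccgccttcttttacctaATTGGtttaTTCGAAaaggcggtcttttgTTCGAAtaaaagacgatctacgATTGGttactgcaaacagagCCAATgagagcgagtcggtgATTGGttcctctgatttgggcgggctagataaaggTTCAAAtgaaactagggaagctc
Kif11: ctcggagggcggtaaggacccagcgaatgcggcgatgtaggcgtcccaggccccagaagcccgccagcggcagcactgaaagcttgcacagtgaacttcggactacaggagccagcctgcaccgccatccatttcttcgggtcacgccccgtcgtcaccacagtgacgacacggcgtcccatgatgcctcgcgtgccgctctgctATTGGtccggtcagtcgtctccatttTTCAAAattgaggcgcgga
The first letter of the E2F motif lay 138 bases before the start in Pola1 and 8 bases before it in Dtl. Top2a held 4 CHR and 6 CCAAT matches. Kif11 held 1 of each, with the first letter of the CHR 19 and that of the CCAAT 45 bases before the start.

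Members of the same group did not differ alike between the libraries, and the classes are taken in turn. Log2 ratios are of (CPM + 5) in the NCKO-labelled over the F/F-labelled library, given where a member had 50 or more UMIs in the class, summed over the libraries (called measured), and a member is counted as higher or lower past 1.5-fold on this scale. UMIs per molecule are not scaled by gene length, so levels are compared between libraries and not between genes. No source used here gives the strand setting of the counting. Of the members, 9 overlap a coding gene on the opposite strand, among them Mcm7, Gins2, Ccne2, Nusap1, Cdc20, Ube2c and Tacc3, and their counts are uncertain to that extent.

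In radial glia-like nuclei 17 members were measured, of which 0 were higher and 7 lower. Over all 5519 genes measured there, 6.83% were higher and 6.40% lower, with a median log2 ratio of 0.01 against -0.54 for the 17 members. The count of 7 was 2 when only F/F-labelled nuclei were clustered, 4 at a pseudocount of 20, 11 without doublet removal, and 14 or 16 with a minimum of 20 UMIs or none, and 2 members passed 2-fold. At these lower minimums 8.90% and 10.4% of all genes were lower. For the other alternatives that share is not given, so their counts are a description only. Over all 30 G2 and M phase members, whatever their UMIs, 27 had a lower level in the NCKO-labelled library, and of the 24 S phase members 13 did. The G2 and M phase members draw on the same few nuclei, so their directions are not separate results. The share of all genes with a lower level was not counted. Of the genes of cytokinesis, Kif23, a kinesin of the central spindle, had 40 UMIs (45.8 CPM) in the NCKO-labelled and 68 UMIs (116 CPM) in the F/F-labelled library, a log2 ratio of -1.25. These came from 20 of 330 and 25 of 203 nuclei. Ect2, which activates the RhoA switch of the contractile ring, had 46 UMIs (52.7 CPM) in the NCKO-labelled and 54 UMIs (91.9 CPM) in the F/F-labelled library, at -0.75. Anln, a scaffold of the same ring, had 36.6 CPM in the NCKO-labelled and 40.8 CPM in the F/F-labelled library, at -0.14 and within counting error.

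Of the genes of chromosome structure and of the spindle, Smc4 had 46 UMIs (52.7 CPM) in the NCKO-labelled and 67 UMIs (114 CPM) in the F/F-labelled radial glia-like nuclei, at -1.04, and was detected in 8.79% and 21.2% of them. Top2a had 92 UMIs (105 CPM) against 90 UMIs (153 CPM), at -0.52, in 9.09% of NCKO-labelled and 15.3% of F/F-labelled nuclei. Mki67 had 31 UMIs (35.5 CPM) in the NCKO-labelled and 34 UMIs (57.8 CPM) in the F/F-labelled library, at -0.63, with a ratio of 0.614 (0.365 to 1.03). Tpx2, a spindle assembly factor, had 35 UMIs (40.1 CPM) in the NCKO-labelled and 46 UMIs (78.2 CPM) in the F/F-labelled library, at -0.89. Kif11 was at -0.45, Nusap1, a microtubule-bundling protein, at -0.36, and Kif20b, another mitotic kinesin, at -0.20.

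Of the kinetochore genes, Cenpa had 53.8 CPM in the NCKO-labelled and 90.2 CPM in the F/F-labelled radial glia-like nuclei, at -0.69. Cenpf, a large kinetochore and nuclear matrix protein, had 72.1 CPM in the NCKO-labelled and 107 CPM in the F/F-labelled library, at -0.54, and Cenpe was at -0.37. The 4 measured S phase members lay on both sides of 0. Dtl had 26.3 CPM in the NCKO-labelled and 45.9 CPM in the F/F-labelled library, at -0.70, and Slbp, which binds the stem-loop of histone mRNAs, was at -0.55. Pola1 had 136 CPM in the NCKO-labelled and 141 CPM in the F/F-labelled library, at -0.05, and Mcm7, a helicase subunit, was at 0.07. Mcm6 had 24 UMIs (27.5 CPM) in the NCKO-labelled and 18 UMIs (30.6 CPM) in the F/F-labelled library, and Pcna 6 and 3 UMIs, too few for a ratio. Genes of neurons were higher in the same NCKO-labelled nuclei, with a sum over 8 genes of 2264 CPM (2166 to 2366) against 1812 CPM (1704 to 1924) in the F/F-labelled library, and those of migrating excitatory neurons had 2007 CPM in the NCKO-labelled and 1138 CPM in the F/F-labelled library. Their part in the result was not tested.

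In intermediate progenitor-like nuclei 8 members were measured, of which 3 were higher and 0 lower. Over all 3084 genes measured there, 9.89% were higher and 7.85% lower. Over all members, 27 of 30 of G2 and M phase and 18 of 24 of S phase had a higher level in the NCKO-labelled library. Here 8 NCKO-labelled and 7 F/F-labelled nuclei held 50% of the G2 and M phase UMIs, so these directions are not separate results. The share of all genes with a higher level was not counted. Top2a had 98 UMIs (351 CPM) in the NCKO-labelled and 66 UMIs (153 CPM) in the F/F-labelled library, at 1.17, in 22 of 97 and 19 of 161 nuclei. Nusap1 had 42 UMIs (150 CPM) in the NCKO-labelled and 26 UMIs (60.3 CPM) in the F/F-labelled library, at 1.25. Tpx2 had 34 UMIs (122 CPM) in the NCKO-labelled and 23 UMIs (53.3 CPM) in the F/F-labelled library, at 1.12. These are a topoisomerase and a pair of spindle proteins, and all 3 lay above 1.5-fold.

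The other 5 measured members were within 1.5-fold in intermediate progenitor-like nuclei. Kif23 had 104 CPM in the NCKO-labelled and 69.6 CPM in the F/F-labelled library, at 0.54. Slbp was at 0.39, Smc4 at 0.39 and Kif11 at 0.32, each with an interval of the ratio that spans 1. Pola1 had 197 CPM in the NCKO-labelled and 213 CPM in the F/F-labelled library, at -0.11. Mki67, with 25 UMIs (89.5 CPM) in the NCKO-labelled and 16 UMIs (37.1 CPM) in the F/F-labelled library, was under the minimum, and it was detected in 17 of 97 and 9 of 161 nuclei. Mcm6 had 14 and 17 UMIs (50.1 and 39.4 CPM), and Pcna 8 UMIs in each library (28.6 and 18.5 CPM). As in the radial glia-like nuclei, the 8 neuron genes summed higher in the NCKO-labelled library, at 2952 CPM (2754 to 3161) against 2398 CPM (2254 to 2548), and their part in the result was not tested. Markers of migrating excitatory neurons went the other way here, with 6731 CPM in the NCKO-labelled and 7728 CPM in the F/F-labelled library. Markers of astrocytes summed to 462 CPM in the NCKO-labelled and 230 CPM in the F/F-labelled library in these nuclei, from 129 and 99 UMIs. Markers of interneurons of the caudal ganglionic eminence summed to 576 CPM in the NCKO-labelled and 118 CPM in the F/F-labelled library (161 and 51 UMIs), and those of Cajal-Retzius cells to 240 and 41.7 CPM (67 and 18 UMIs). The part of these other cell types in the result was not tested.

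In oligodendrocyte precursor-like nuclei 2 members were measured, Top2a and Pola1. Top2a had 61 UMIs (118 CPM) in the NCKO-labelled and 16 UMIs (65.7 CPM) in the F/F-labelled library, at 0.80, where 9.42% of 2993 genes were higher and 7.15% lower. Pola1 had 75 UMIs (145 CPM) in the NCKO-labelled and 51 UMIs (209 CPM) in the F/F-labelled library, at -0.51. The F/F-labelled nuclei gave 116 G2 and M phase UMIs in all, and 5 of the 30 members had none there. Over all members, 29 of 30 of G2 and M phase and 10 of 24 of S phase had a higher level in the NCKO-labelled library. Here 7 NCKO-labelled and 3 F/F-labelled nuclei held 50% of the G2 and M phase UMIs, so these directions are not separate results. The share of all genes with a higher level was not counted. The 7 kinetochore and checkpoint genes together had 123 UMIs (238 CPM) in the NCKO-labelled and 17 UMIs (69.8 CPM) in the F/F-labelled library, a ratio of 3.41 (2.04 to 6.04). When only F/F-labelled nuclei were clustered and the rest assigned to them, the ratio of the G2 and M phase sum was 3.96 instead of 2.21.

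In astrocyte-like nuclei 15 members were measured, and none passed 1.5-fold, where 8.38% of 3844 genes were higher and 6.22% lower. Top2a had 124 UMIs (215 CPM) in the NCKO-labelled and 88 UMIs (295 CPM) in the F/F-labelled library, at -0.45, and Smc4 had 90.1 CPM in the NCKO-labelled and 138 CPM in the F/F-labelled library, at -0.58. Cenpf was at -0.49, Anln at -0.49, Kif11 at -0.47 and Hells, a chromatin remodeller, at -0.38. Cenpe had 102 CPM in the NCKO-labelled and 73.8 CPM in the F/F-labelled library, at 0.44, and Mki67 had 90.1 and 73.8 CPM, at 0.27. Giving each sub-cluster its F/F-labelled weight, which holds the sub-cluster shares equal in both libraries, the ratio of the G2 and M phase sum was 1.05 instead of 0.829.

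Most members peaked in ganglionic eminence progenitor-like nuclei, 28 of 30 G2 and M phase members in the NCKO-labelled and 29 of 30 in the F/F-labelled library. Cell cycle genes such as Top2a and Kif11 are among the leading genes of their cluster, so this height is a description of the cluster. Here 23 members were measured, of which 1 was higher and 4 lower, with 8.03% of 2229 genes higher and 7.72% lower. Hells was the higher one, with 40 UMIs (153 CPM) in the NCKO-labelled and 20 UMIs (92.6 CPM) in the F/F-labelled library, at 0.69. Cenpe had 21 UMIs (80.1 CPM) in the NCKO-labelled and 35 UMIs (162 CPM) in the F/F-labelled library, at -0.97, and Anln 22 and 35 UMIs (83.9 and 162 CPM), at -0.91. Dtl was at -0.65 and Kif11, with 290 CPM in the NCKO-labelled and 445 CPM in the F/F-labelled library, at -0.61.

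The highest levels in these nuclei differed little. Top2a had 679 CPM in the NCKO-labelled and 607 CPM in the F/F-labelled library, at 0.16, Pola1 had 618 and 676 CPM, at -0.13, and Cenpf had 297 and 310 CPM, at -0.06. Mki67 had 168 CPM in the NCKO-labelled and 148 CPM in the F/F-labelled library, at 0.17. Ndc80, a kinetochore subunit that grips microtubules, was at 0.38 and Ect2 at 0.31. Ckap2, a spindle protein, was at -0.47 and Slbp at -0.42. Mcm6 had 24 and 18 UMIs (91.5 and 83.4 CPM) and Pcna 16 and 7 UMIs (61.0 and 32.4 CPM) in the NCKO-labelled and F/F-labelled library in that order.

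**Figure D3:**
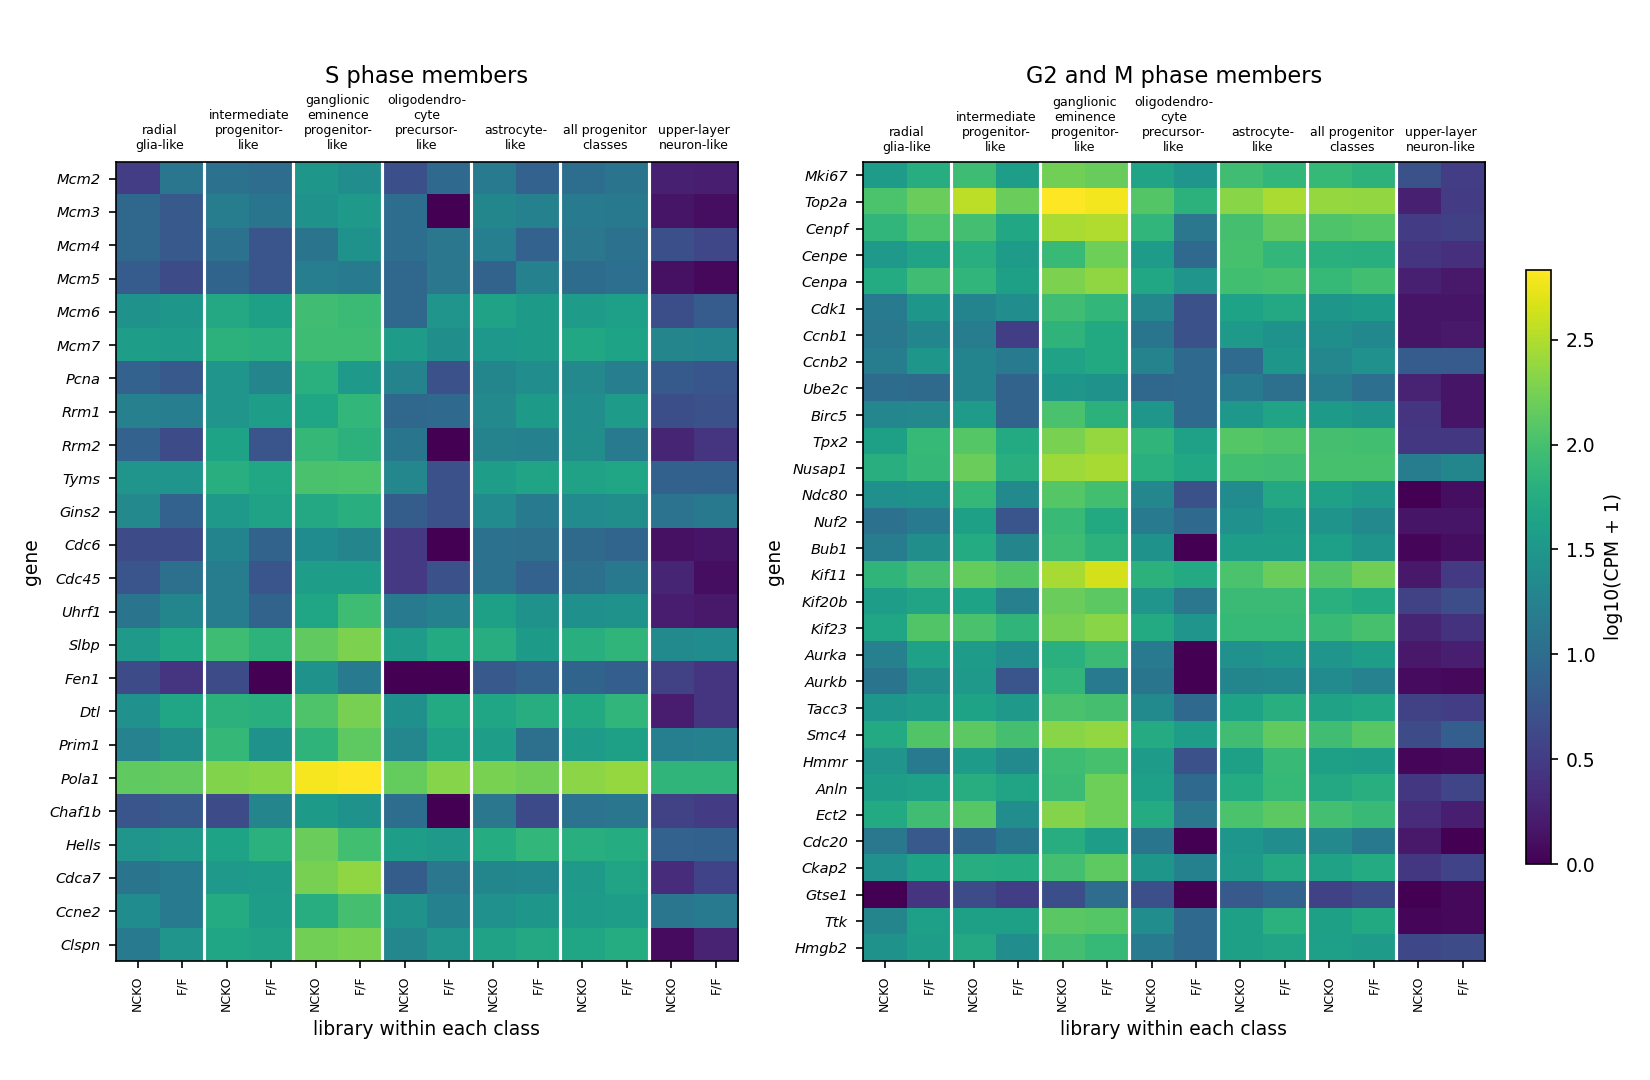
Level of every member as log10(CPM + 1), S phase members (left panel) and G2 and M phase members (right panel) in rows, with the NCKO-labelled library to the left of the F/F-labelled one in each class. The ganglionic eminence progenitor-like columns are the brightest and the upper-layer neuron-like columns mostly dark, while Pola1 is bright in every class, at 136 and 141 CPM in radial glia-like nuclei.

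**Figure D4:**
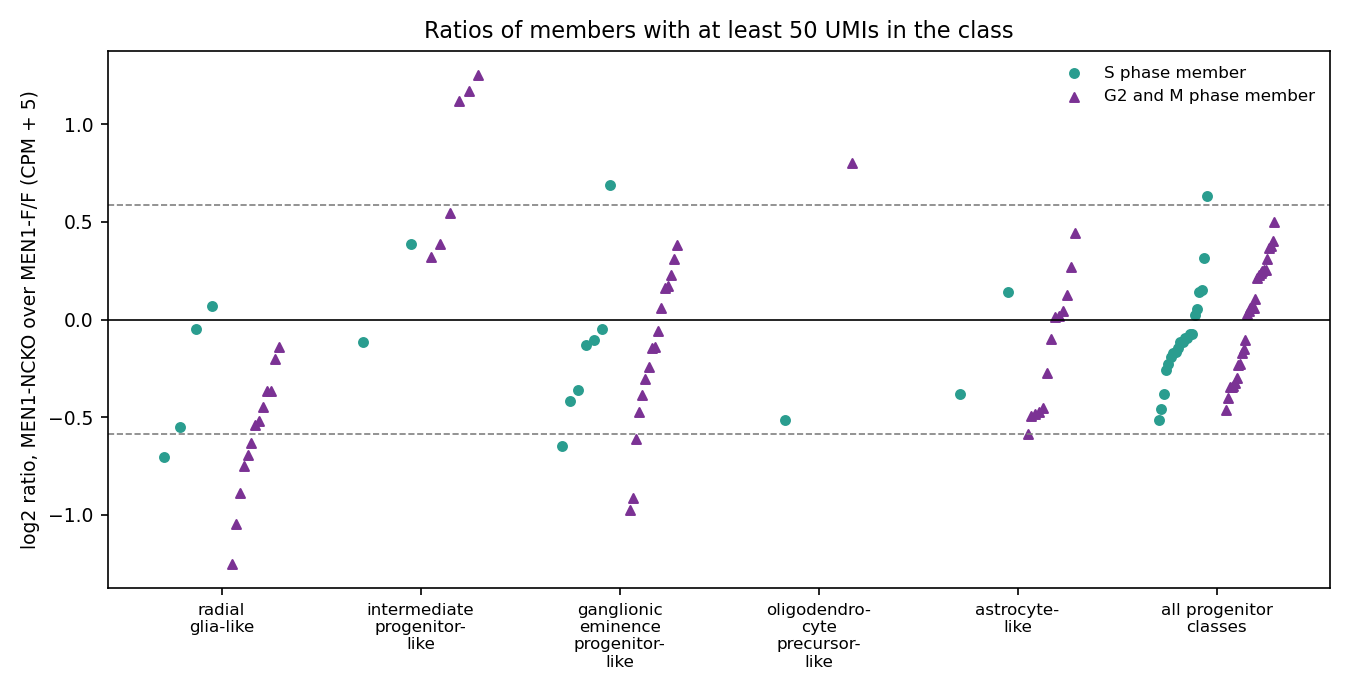
Log2 ratio of (CPM + 5), MEN1-NCKO over MEN1-F/F, of each member with at least 50 UMIs in the class, S phase members as circles and G2 and M phase members as triangles; dashed lines mark 1.5-fold. All 13 measured G2 and M phase members lie below 0 in radial glia-like nuclei, all 6 lie above 0 in intermediate progenitor-like nuclei, and the 29 in the pool lie on both sides, with none past 1.5-fold.

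Over the whole pool 50 of the 54 members were measured, and 1 was higher and 0 lower, where 4.25% of 10432 genes were higher and 2.90% lower. Without doublet removal these counts were 0 higher and 10 lower, and the share of all genes under that setting is not given, so they are a description only. Mcm5, Cdc6, Fen1 and Gtse1 had 45, 39, 32 and 14 UMIs and were not measured. The higher one was Rrm2, with 68 UMIs (24.3 CPM) in the NCKO-labelled and 28 UMIs (13.9 CPM) in the F/F-labelled library, a log2 ratio of 0.63. The large subunit of the same enzyme, Rrm1, went the other way, with 66 UMIs (23.6 CPM) in the NCKO-labelled and 72 UMIs (35.8 CPM) in the F/F-labelled library, at -0.51. The nucleotide supply genes, with Tyms at -0.12, summed to a ratio of 0.939 (0.775 to 1.14). The 6 MCM helicase genes summed to 128 CPM in the NCKO-labelled and 127 CPM in the F/F-labelled library, a ratio of 1.01 (0.859 to 1.19). The polymerase, clamp and fork genes had a ratio of 0.903 (0.818 to 0.997), of which Pola1 gave most UMIs, at 215 CPM in the NCKO-labelled and 243 CPM in the F/F-labelled library, while Pcna had 57 and 31 UMIs (20.4 and 15.4 CPM), at 0.31. The S phase regulators Dtl and Ccne2, a cyclin E gene, had a ratio of 0.787 (0.653 to 0.9496), with Dtl at 51.1 CPM in the NCKO-labelled and 72.1 CPM in the F/F-labelled library.

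Of the mitotic groups in the pool, the 9 spindle genes had a ratio of 0.905 (0.838 to 0.978) and the 7 kinetochore and checkpoint genes one of 0.982 (0.897 to 1.08). Kif11 had 329 UMIs in each library, which is 117 CPM in the NCKO-labelled and 164 CPM in the F/F-labelled library, at -0.46. Smc4 had 91.8 CPM in the NCKO-labelled and 123 CPM in the F/F-labelled library, at -0.40, and Kif23 80.4 and 102 CPM, at -0.33. Top2a, with 240 CPM in the NCKO-labelled and 233 CPM in the F/F-labelled library, was at 0.04, and Mki67, with 78.2 and 66.1 CPM, at 0.23. Cdc20 and Ube2c, which serve the anaphase-promoting complex, summed to 97 UMIs in the NCKO-labelled and 46 UMIs in the F/F-labelled library, a ratio of 1.51 (1.06 to 2.20), with Cdc20 at 0.50 and Ube2c at 0.37. Nuf2, another kinetochore subunit, was at 0.40 and Bub1, a checkpoint kinase, at 0.37. For 7 of the 54 members the interval of the ratio left out 1: Rrm2 lay above, and Rrm1, Dtl, Pola1, Kif11, Kif23 and Smc4 lay below. The same count over all genes was not made, so this count is a description only.

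For shares of nuclei with member UMIs, depth was made equal at 1000 UMIs per nucleus by a single random draw. A nucleus was counted with at least 2 UMIs of a phase. Among radial glia-like nuclei 31 of 322 NCKO-labelled (9.63%) and 35 of 202 F/F-labelled nuclei (17.3%) had G2 and M phase UMIs, a difference of -7.70 percentage points (-14.3 to -1.48), and of -13.5 to -4.71 points under the alternatives tried. Among intermediate progenitor-like nuclei 21 of 97 NCKO-labelled (21.6%) and 17 of 158 F/F-labelled nuclei (10.8%) had them, a difference of 10.9 points (1.17 to 21.4), and of 3.20 to 19.3 points under the alternatives. Among oligodendrocyte precursor-like nuclei 26 of 152 (17.1%) NCKO-labelled and 6 of 71 (8.45%) F/F-labelled nuclei had them, a difference of 8.65 points (-1.99 to 17.4) that was not detectable at this depth and ran from 2.17 to 9.18 points under the alternatives. Astrocyte-like nuclei had 22.9% in the NCKO-labelled and 26.0% in the F/F-labelled library, and ganglionic eminence progenitor-like nuclei 67.0% and 68.8%. In the pool the shares were 23.0% in the NCKO-labelled and 23.6% in the F/F-labelled library, a difference of -0.567 points (-4.81 to 3.61). In upper-layer neuron-like nuclei they were 0.309% and 0.488%, and their median depth of 4094 UMIs in the NCKO-labelled library compares with 2227 in radial glia-like nuclei before thinning.

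Shares of nuclei with S phase UMIs differed less in radial glia-like, intermediate progenitor-like and oligodendrocyte precursor-like nuclei, but not in the other classes. They were 6.83% in the NCKO-labelled and 11.9% in the F/F-labelled radial glia-like nuclei, a difference of -5.05 points (-10.9 to 0.247). In intermediate progenitor-like nuclei they were 20.6% in the NCKO-labelled and 13.3% in the F/F-labelled library, a difference of 7.33 points (-2.51 to 17.9). The differences were -2.71 points in oligodendrocyte precursor-like, -3.83 in astrocyte-like and 2.50 in ganglionic eminence progenitor-like nuclei and -2.65 in the pool. In upper-layer neuron-like nuclei they were 1.60% and 1.19%, and in interneuron-like nuclei of the medial ganglionic eminence 8.09% and 11.1%, so the S phase shares of radial glia-like nuclei lay near those of interneuron-like nuclei. Before thinning, the G2 and M phase difference was -10.7 points in radial glia-like and 12.9 points among intermediate progenitor-like ones. The thinning dropped 25 NCKO-labelled and 13 F/F-labelled nuclei of the pool. In a separate draw over all kept nuclei, 284 NCKO-labelled and 188 F/F-labelled nuclei had G2 and M phase UMIs, and 22.5% and 14.4% of these lay outside the progenitor clusters. S phase UMIs were found in 519 NCKO-labelled and 364 F/F-labelled nuclei, of which 64.0% and 55.8% lay outside these clusters. Most nuclei that passed the S phase cut were thus not in progenitor clusters.

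**Figure D5:**
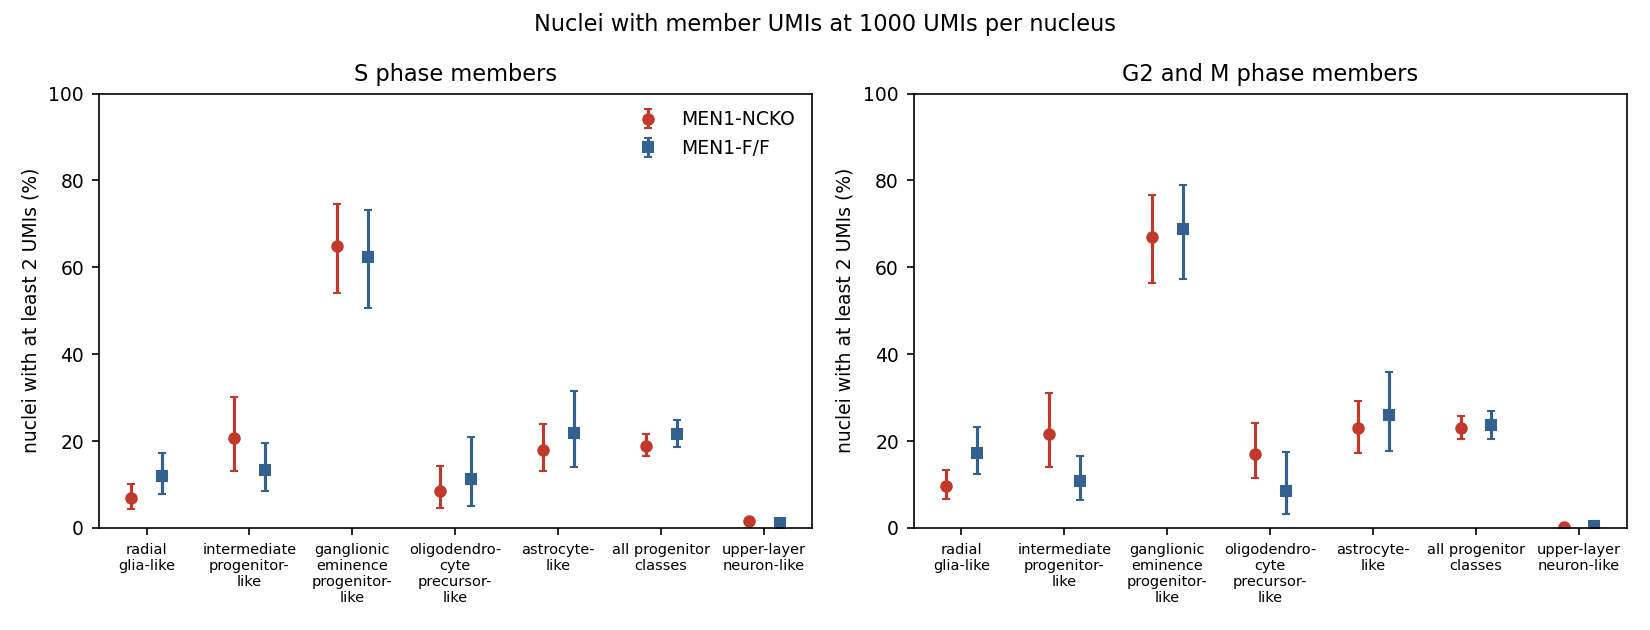
Share of nuclei with at least 2 UMIs of S phase members (left) or of G2 and M phase members (right) at 1000 UMIs per nucleus, by class, MEN1-NCKO (red circles) beside MEN1-F/F (blue squares); bars are exact binomial 95% intervals. The G2 and M phase shares are 9.63% and 17.3% in radial glia-like, 21.6% and 10.8% in intermediate progenitor-like and 23.0% and 23.6% in all progenitor classes.

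The phase balance is given as the share of S phase UMIs among all member UMIs. It was 32.6% in the NCKO-labelled and 33.9% in the F/F-labelled pool, a difference of -1.31 points. In radial glia-like nuclei it was 32.9% (423 of 1284 UMIs) in the NCKO-labelled and 26.1% (317 of 1214 UMIs) in the F/F-labelled library, 6.83 points higher. In intermediate progenitor-like nuclei it was 32.2% in the NCKO-labelled and 43.8% in the F/F-labelled library, a difference of -11.6 points. In oligodendrocyte precursor-like nuclei it was 31.1% in the NCKO-labelled and 54.7% in the F/F-labelled library, a difference of -23.6 points. In astrocyte-like nuclei it was 30.1% and 25.1%, and in ganglionic eminence progenitor-like nuclei 34.4% and 36.4%, in the NCKO-labelled and F/F-labelled library in that order. Upper-layer neuron-like nuclei, which no longer divide, had 77.5% and 75.4%, so their few member UMIs were mostly of S phase members. The balance by UMIs can thus also vary with the share of nuclei that do not divide. That part was not separated from a shift between phases among dividing nuclei, and neither was tested. The balance was also counted by nuclei, among those with UMIs of either phase. Interneuron-like nuclei reached the S phase cut too, so nuclei with S phase UMIs only need not be dividing. Nuclei with S phase UMIs only were 16 of 47 NCKO-labelled (34.0%) and 14 of 49 F/F-labelled (28.6%) radial glia-like ones, a difference of 5.47 points (-14.3 to 24.9). In intermediate progenitor-like nuclei they were 10 of 31 (32.3%) NCKO-labelled and 14 of 31 (45.2%) F/F-labelled nuclei, a difference of -12.9 points (-37.3 to 13.3). By nuclei, a difference in balance was thus not detectable at this depth in either class.

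Genes of the other cell cycle lists lay within 1.5-fold over the pool where they were measured. None of 15 measured genes of G1 phase and E2F regulation, 27 other replication genes, 11 genes of replication checkpoint and repair or 32 other mitosis genes passed 1.5-fold. The checkpoint and repair genes all had log2 ratios below 0, with a median of -0.31 against 0.02 over all measured genes, from -0.56 for Chek1, a checkpoint kinase gene with 22 UMIs in the NCKO-labelled and 28 UMIs in the F/F-labelled library, and -0.37 for Brca1 to -0.01 for Fanca. The medians were -0.05 for G1 phase and E2F regulators, -0.06 for other replication genes and -0.06 for other mitosis genes. Among the first, Ccnd3, a cyclin D gene, was at -0.48 and Cdk6, its kinase, at -0.25, with E2f1 at 0.25 and Cdc25a, a phosphatase that activates Cdk2, at 0.54. Among the replication genes Pola2 was at -0.44 and Timeless at -0.43, with Gins3 at 0.48 and Rfc3 at 0.50. Among the mitosis genes Foxm1, a transcription factor of mitotic genes, was at -0.50 and Smc2 at -0.36, with Cdca8 at 0.37 and Kif22 at 0.38. Of 7 CDK inhibitor genes only Cdkn1b was measured, at 43.6 CPM in the NCKO-labelled and 39.8 CPM in the F/F-labelled library. The 8 neuron genes summed to 2825 CPM (2763 to 2888) in the NCKO-labelled and 2405 CPM (2338 to 2474) in the F/F-labelled pool, with Tubb3 at 0.52 and Dlgap1 at 0.37, and Gad2 at -0.08 and Gad1 at 0.05.

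By class, the lists differed between the libraries. In radial glia-like nuclei the 34 other mitosis genes summed to 897 CPM in the NCKO-labelled and 1308 CPM in the F/F-labelled library, a ratio of 0.686 (0.620 to 0.759), with 4 of 10 measured genes lower, where 6.40% of all genes were lower. The checkpoint and repair genes there had a ratio of 0.653 (0.543 to 0.786). In intermediate progenitor-like nuclei the other mitosis genes summed to 2090 CPM in the NCKO-labelled and 1127 CPM in the F/F-labelled library, a ratio of 1.85 (1.64 to 2.10), with 6 of 8 measured genes higher, where 9.89% of all genes were higher. In oligodendrocyte precursor-like nuclei their ratio was 1.78 (1.47 to 2.17). The other replication genes had ratios of 0.861 (0.771 to 0.962) in radial glia-like and 1.34 (1.17 to 1.53) in intermediate progenitor-like nuclei. These genes come from the same nuclei as the members and share their UMIs' source, so they are no separate evidence.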

How the data were processed

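UMI counts per gene and barcode were deposited by the authors as unnormalised matrices, and per the file headers the tool was Cell Ranger 6.1.0. The genome build mm10 and the tool Seurat are named in the submitters' processing notes. Nuclei with under 500 genes, over 5% mitochondrial UMIs or a high simulated-doublet score (0.8% removed per 1000 barcodes) were left out: 19 and 10, 0 and 1, and 924 and 336 nuclei of the NCKO-labelled and F/F-labelled library. Clusters (Leiden, resolution 1, 30 components of 2000 variable genes, 440 cell cycle, sex, mitochondrial and haemoglobin genes left out) were named by marker lists; the naming rule and the setting apart of sub-clusters were settled after the clusters had been seen. The members and gene lists were chosen with earlier results of these data known.

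CPM, ratios and their intervals were computed here: exact Poisson for levels, conditional binomial for ratios and Clopper-Pearson for shares, at 95%. Intervals for differences of shares joined the Clopper-Pearson limits of the 2 shares by the formula of Newcombe. Genes named per class were the 6 highest and 6 lowest log2 ratios and 4 highest levels, plus Mki67, Top2a, Pcna and Mcm6, and of other lists the 2 highest and 2 lowest; 1 gene named by this rule is not reported here. The ratio, fold and share-difference steps were tested on simulated independent counts, which lack the gathering of UMIs in few nuclei. Doublet scoring, clustering, naming, thinning and motif matching were not tested in this way. Python 3.11.15, scipy 1.17.1, scikit-learn 1.9.0 and leidenalg 0.10.2 were used.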

Additional observations from a re-analysis of the deposited data

Results flagged for a closer look

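The direction of the summed levels differed between classes, and the difference between classes was not tested. For G2 and M phase members the NCKO-labelled over F/F-labelled ratio was 0.646 in radial glia-like and 0.829 in astrocyte-like nuclei, but 1.92 in intermediate progenitor-like and 2.21 in oligodendrocyte precursor-like nuclei. For S phase members it was 0.88 in ganglionic eminence progenitor-like and 1.17 in intermediate progenitor-like nuclei. With F/F-labelled weights for the sub-clusters the G2 and M phase ratio was above 1 in every class, at 1.15 in radial glia-like, 1.05 in astrocyte-like, 1.42 in intermediate progenitor-like, 1.09 in ganglionic eminence progenitor-like and 1.71 in oligodendrocyte precursor-like nuclei. These weights give both libraries the same share of the sub-clusters rich in G2 and M phase UMIs. A difference in that share is thus removed by construction. The S phase ratio turned to 1.05 in ganglionic eminence progenitor-like nuclei without doublet removal, and to 0.995 in intermediate progenitor-like nuclei with those weights. Each of these rests on 1 library per label.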

How the results depend on the processing

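No paired analysis was possible because there was 1 library per label. Ratios, differences and counts are NCKO-labelled against F/F-labelled, and where a value moved the cause was not tested. Without doublet removal the G2 and M phase ratio was 1.34 in intermediate progenitor-like, 1.17 in ganglionic eminence progenitor-like, 1.52 in oligodendrocyte precursor-like and 0.730 in all progenitor classes, and the S phase ratio turned to 1.05 in ganglionic eminence progenitor-like nuclei and was 0.766 in all progenitor classes. The phase balance then differed by -3.87, -16.1 and 1.14 points in intermediate progenitor-like, oligodendrocyte precursor-like and all progenitor classes, the share of nuclei with G2 and M phase UMIs by -5.32 points in all progenitor classes, and no cluster was named astrocyte-like. Members past 1.5-fold were then 11 lower in radial glia-like, 2 higher and 1 lower in ganglionic eminence progenitor-like, 0 higher and 1 lower in oligodendrocyte precursor-like, and 0 higher and 10 lower in all progenitor classes. At resolution 2 the G2 and M phase ratio of ganglionic eminence progenitor-like nuclei was 0.839, 0 of their members were higher, and 1 member each was lower in astrocyte-like and all progenitor classes; radial glia-like nuclei were too few for a value. When only F/F-labelled nuclei were clustered, the G2 and M phase ratio was 0.756 in radial glia-like, 1.60 in intermediate progenitor-like and 3.96 in oligodendrocyte precursor-like nuclei, the phase balance of the last differed by -34.1 points, and 2 members were lower in radial glia-like, 0 higher in ganglionic eminence progenitor-like and 3 lower in astrocyte-like nuclei. Giving sub-clusters, and clusters for the pool, their F/F-labelled weights, the G2 and M phase ratio turned to 1.15 in radial glia-like and 1.05 in astrocyte-like nuclei and was 1.42 in intermediate progenitor-like, 1.09 in ganglionic eminence progenitor-like, 1.71 in oligodendrocyte precursor-like and 1.15 in all progenitor classes, and the S phase ratio of intermediate progenitor-like nuclei turned to 0.995. With each nucleus thinned to 1000 UMIs the G2 and M phase ratio was 0.551 in radial glia-like, 0.668 in astrocyte-like and 0.910 in all progenitor classes, and the S phase ratio of intermediate progenitor-like nuclei was 1.44. Without the 5 members with most UMIs the G2 and M phase ratio of all progenitor classes was 1.01. Thinned to 2000 UMIs, astrocyte-like nuclei with S phase UMIs differed by 13.1 points. With a pseudocount of 1, 1 member was lower in astrocyte-like and 2 higher in all progenitor classes; with 20, 4 were lower in radial glia-like and 0 higher in all progenitor classes. With a minimum of 20 UMIs, 2 were higher and 14 lower in radial glia-like, 12 higher in intermediate progenitor-like, 5 higher and 8 lower in ganglionic eminence progenitor-like, 9 higher and 2 lower in oligodendrocyte precursor-like and 2 higher and 3 lower in astrocyte-like nuclei. Of all genes at that minimum 10.2%, 14.7%, 13.7%, 14.5% and 13.7% were higher and 8.90%, 10.7%, 11.1%, 10.4% and 8.81% lower in these classes in that order. With no minimum the counts were 3 and 16, 25 higher and 1 lower, 6 and 10, 28 and 4, and 5 and 5, where 11%, 24.3%, 27.2%, 20.7% and 17.7% of all genes with a UMI were higher and 10.4%, 14.7%, 22.7%, 16.5% and 16.8% lower. Past 2-fold, 2 were lower in radial glia-like, 0 higher and 0 lower in ganglionic eminence progenitor-like, 0 higher in oligodendrocyte precursor-like and 0 higher in all progenitor classes. Shares of all genes past the fold are given only for the main setting and the lower minimums. Counts of members under the other alternatives are thus a description only. Keeping the set-apart sub-clusters in their class, an alternative chosen after seeing the data, moved none of the values it could give. Under these and the other alternatives 253 further values stayed within the 95% counting interval of the value reported (counts within 1.5 times of it), which can include a change of sign. In ganglionic eminence progenitor-like nuclei the difference in nuclei with G2 and M phase UMIs, -1.80 points, ran from -10.7 to 4.55 points, and that in nuclei with S phase UMIs, 2.50 points, from -7.42 to 2.87 points. Thinning was a single random draw, and few nuclei with member UMIs limit oligodendrocyte precursor-like values most.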
